A study of Rattus norvegicus with 12 samples.

Results

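A set of 7 cathepsins and a pair of cystatins were followed through an RNA sequencing series on chronic orofacial pain in the rat brain. The members were the rows of the deposited gene table named Ctss, Ctsb, Ctsc, Ctsd, Ctsh, Ctsl, Ctsz, Cst3 and Cst7, which are 9 of the 34525 genes listed. Each name occurred once, all 9 were protein coding, and no other listed gene overlapped any of them. The 12 libraries fell into 4 groups of 3, which were thalamus of rats given CFA, thalamus of rats given saline (0.9% sodium chloride), rostral ventral medulla (RVM) of rats given CFA and RVM of rats given saline. The thalamus is the forebrain relay for sensory signals, and the RVM is a brainstem region that sends descending control to spinal and trigeminal pain circuits. The labels give the letters CFA alone, which rodent pain work mostly uses for complete Freund's adjuvant, mycobacteria in oil that keep the injected tissue inflamed. Dose, site, time, strain, sex and age are not given in the labels, and neither is the animal behind each library, so every p-value reflects the spread between libraries, which may be technical. The extraction text speaks of retinas, while the tissue labels name thalamus and RVM.

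Cathepsins are the main proteases of endosomes and lysosomes. Ctsb, Ctsc, Ctsh, Ctsl, Ctss and Ctsz encode cysteine proteases and Ctsd an aspartic protease, and most of them ripen from inactive precursors in the acid interior of the lysosome. Cystatins block cysteine cathepsins by wedging into the active site: cystatin C (Cst3) is secreted into the fluid around cells, whereas cystatin F (Cst7) is sent to the lysosomes of immune cells. Cystatin F is known to block cathepsin C once it has itself been trimmed. In the brain microglia are a main source of most of these proteins, and in rodent models of nerve injury cathepsin S released by spinal microglia sheds the chemokine fractalkine from neurons.

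Values are FPKM (fragments scaled by the authors for gene length and library size), so levels can be set beside each other between genes. Between libraries, levels depend on the authors' scaling, which is not given. The lowest sum of FPKM over all genes was 444469.7, for thalamus CFA library 1, and the highest was 595129.9, for RVM CFA library 2. Whole reads could be recovered from the FPKM, and each library held 14.94 to 19.24 M reads assigned to genes. At that depth 3 reads, taken as the most that a gene listed at 0 could have been expected to give, equal 0.156 to 0.201 CPM (reads scaled to library size), a limit that covers counting error only. The thalamus CFA libraries stood apart from each other in choroid plexus transcripts. The 11 choroid plexus and ependyma markers in the table summed to 10980, 2703 and 71.3 FPKM in thalamus CFA libraries 1, 2 and 3, against 102, 61.1 and 84.9 FPKM in thalamus saline, and to 136 to 160 FPKM in RVM CFA and 194 to 218 FPKM in RVM saline. The choroid plexus gene Ttr gave 9934, 2361 and 5.50 FPKM in those thalamus CFA libraries, and at most 18.0 FPKM in any library of the other groups. In the RVM a marker other than Ttr carried most of the sum, reaching 155.7 FPKM in RVM CFA and 213.8 FPKM in RVM saline. RVM CFA library 2 stood apart in microglial transcripts, with a marker sum of 408 FPKM beside 1387 and 1168 FPKM in the other RVM CFA libraries.

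Promoter windows from RefSeq (GRCr8, 250 bases before to 50 after the gene start) were found for 8 of the 9 genes, all but Ctsb. They were searched on both strands for 4 sequences: CACGTG, the core that basic helix-loop-helix factors of the lysosomal TFEB family recognise, its extension TCACGTGA, which always contains CACGTG, AGGAAGTG, a form of the site of the myeloid factor PU.1, and GAAA repeated after any pair of bases, a form of the site of interferon regulatory factors. The 250 bases before the start are printed for the 3 genes with a match, 5′ to 3′ along the gene's strand, with the matches in capitals.
Ctss: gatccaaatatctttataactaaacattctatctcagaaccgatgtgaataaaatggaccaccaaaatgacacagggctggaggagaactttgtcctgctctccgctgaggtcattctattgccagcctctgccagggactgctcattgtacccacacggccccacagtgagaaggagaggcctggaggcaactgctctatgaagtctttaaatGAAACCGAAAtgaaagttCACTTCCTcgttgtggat
Ctsd: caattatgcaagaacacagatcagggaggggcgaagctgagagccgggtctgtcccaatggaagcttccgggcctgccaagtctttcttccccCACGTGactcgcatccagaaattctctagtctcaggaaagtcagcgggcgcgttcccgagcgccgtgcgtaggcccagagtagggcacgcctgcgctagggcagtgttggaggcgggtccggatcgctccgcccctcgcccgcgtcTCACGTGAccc
Cst7: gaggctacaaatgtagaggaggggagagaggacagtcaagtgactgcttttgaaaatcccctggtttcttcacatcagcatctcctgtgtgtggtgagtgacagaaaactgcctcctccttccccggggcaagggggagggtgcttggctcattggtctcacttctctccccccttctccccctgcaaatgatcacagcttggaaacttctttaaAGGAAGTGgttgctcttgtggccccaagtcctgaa
The Ctss stretch is chr2:185775146-185775395 on the plus strand, the Ctsd stretch chr1:206968822-206969071 on the minus strand and the Cst7 stretch chr3:159857030-159857279 on the plus strand. Counting back from the gene start, Ctss held GAAACCGAAA at -36 to -27 and AGGAAGTG, read on the other strand as CACTTCCT, at -18 to -11. Cst7 held AGGAAGTG at -35 to -28. Ctsd held CACGTG at -157 to -152 and TCACGTGA at -11 to -4. Of all 33469 promoter windows 6.42% held CACGTG, 0.777% TCACGTGA, 3.44% AGGAAGTG and 3.92% the repeat of GAAA, beside 1, 1, 2 and 1 of the 8 members. A match is a string of letters and no evidence of binding.

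In the thalamus, all 9 genes were higher in every CFA library than in any saline library, and 6 of 9 passed the test: Ctsc, Ctsz, Ctsh, Ctss, Ctsb and Cst7. Cst7 had no read in thalamus saline and entered the test only through its CFA libraries, so its pass is no support of its own, and 5 of the other 8 passed. The dipeptidyl peptidase gene Ctsc and the carboxypeptidase gene Ctsz had the widest changes among the cathepsins, 10.4-fold and 7.0-fold in group means. Ctsd, Ctsl and Cst3 were 1.65-fold, 1.83-fold and 1.25-fold apart in group means and did not pass. Among all 14722 genes tested 4.11% were called (3.84% higher and 0.272% lower), and 12.2% had every CFA library above every saline library. The median change of all genes was -0.08 on the log2(FPKM + 1) scale, the scale of all log2 changes here. Tests were made with limma and called at a Benjamini-Hochberg adjusted p below 0.05 over all genes tested. In bulk tissue, more cells of a type and more RNA per cell cannot be told apart.

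**Figure D1:**
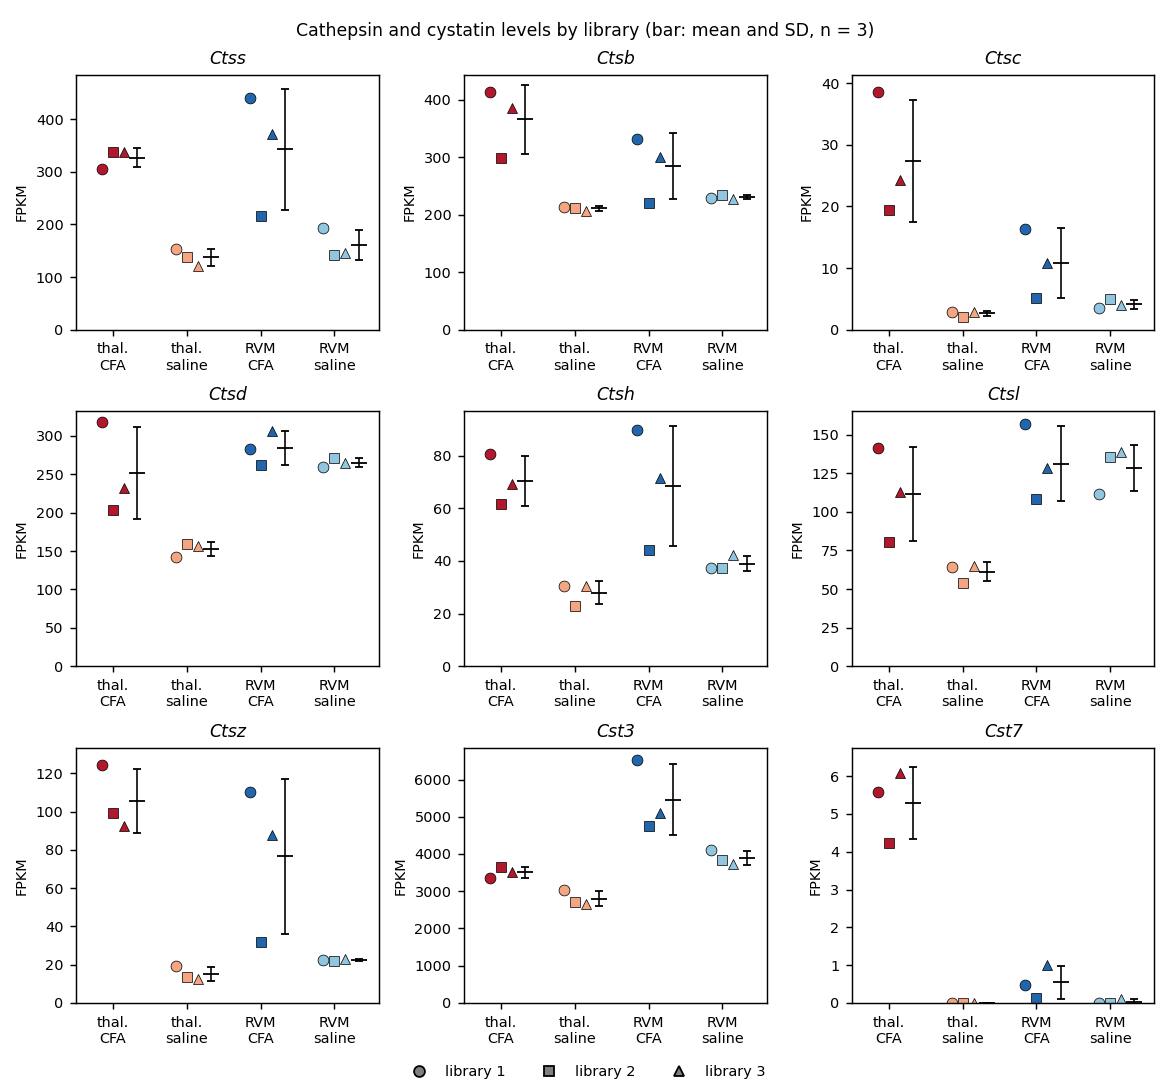
Level in FPKM of each of the 9 genes in every library (circle, square and triangle for libraries 1, 2 and 3), with the mean and SD of each group of 3 beside the points. In the thalamus panels the CFA points lie above all saline points for each gene, and in the RVM panels CFA library 2 (square) lies nearest to saline for Ctss, Ctsc, Ctsh and Ctsz.

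Ctss (ENSRNOG00000021157, listed at chromosome 2, 197655786 to 197679458) encodes cathepsin S, an endopeptidase that stays active at neutral pH and trims the invariant chain in antigen-presenting cells. It stood at 306, 338 and 337 FPKM in thalamus CFA libraries, against 153, 139 and 122 FPKM in thalamus saline libraries. The CFA libraries were close together, with a mean of 327 ± 18.3 FPKM against 138 ± 15.8 FPKM in saline (SD, n = 3 each). The log2 change was 1.25 ± 0.11 (SE), with a limma adjusted p of 0.00269.

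Ctsc (ENSRNOG00000016496, chromosome 1, 151918571 to 151949983) encodes dipeptidyl peptidase 1, which activates the granule serine proteases of neutrophils, mast cells and cytotoxic lymphocytes. It stood at 38.5, 19.4 and 24.2 FPKM in thalamus CFA libraries, against 2.92, 2.13 and 2.87 FPKM in thalamus saline libraries. Library 1 was the highest, and even the lowest CFA library was 7.35 times the saline mean. The log2 change was 2.91 ± 0.25 (SE), with a limma adjusted p of 0.00225. Of the serine proteases it activates, Gzma stood at 0.118, 0.265 and 0 FPKM and Gzmb at 0.0729, 0 and 0 FPKM in thalamus CFA, both were at 0 in thalamus saline, and Ctsg was at 0 in every library. Elane was at 0 in thalamus saline and in both RVM groups, but not throughout thalamus CFA. Prtn3 was not at 0 throughout any group.

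Ctsz (ENSRNOG00000050697, chromosome 3, 172527107 to 172537877, minus strand) encodes cathepsin Z, also called X, a carboxypeptidase. Its levels were 124, 99.5 and 92.5 FPKM in thalamus CFA, against 19.4, 13.4 and 12.4 FPKM in thalamus saline. Each CFA library was 6.14 to 8.26 times the saline mean. The log2 change of 2.74 ± 0.19 (SE) had a limma adjusted p of 0.00108.

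Ctsh (ENSRNOG00000014064, chromosome 8, 97439161 to 97458287), an aminopeptidase gene, was read at 80.5, 61.8 and 69.1 FPKM in thalamus CFA, against 30.5, 22.9 and 30.5 FPKM in thalamus saline. Its change, 1.31 ± 0.15 (SE) in log2 with a limma adjusted p of 0.00663, was close in size to that of Ctss. Ctsb (ENSRNOG00000010331, chromosome 15, 46316741 to 46337612), which encodes an abundant protease with both endopeptidase and carboxypeptidase activity, was read at 414, 298 and 385 FPKM in thalamus CFA, against 214, 212 and 207 FPKM in thalamus saline. The saline libraries spanned a narrow range, and CFA library 2 was the nearest to them. Its log2 change was 0.78 ± 0.14 (SE), with a limma adjusted p of 0.0321. That call did not hold in 5 of the 6 fits that left out a library, where the log2 change was 0.68 to 0.92 and the adjusted p 0.015 to 0.145 over all 6.

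Ctsl (ENSRNOG00000018566, chromosome 17, 1872848 to 1879279, minus strand) encodes cathepsin L, an endopeptidase that takes part in the activation of other lysosomal enzymes. It was read at 141, 80.7 and 113 FPKM in thalamus CFA, against 64.6, 54.2 and 64.8 FPKM in thalamus saline. The CFA libraries were spread widely, and the log2 change of 0.83 ± 0.21 (SE) did not pass (limma adjusted p = 0.104). Without thalamus CFA library 2, the lowest, the change was 1.04 and passed with an adjusted p of 0.0309. Ctsd (ENSRNOG00000020206, chromosome 1, 215541542 to 215553451, minus strand), the aspartic protease, was read at 318, 203 and 232 FPKM in thalamus CFA, against 142, 159 and 156 FPKM in thalamus saline. Its log2 change of 0.69 ± 0.17 (SE) did not pass (limma adjusted p = 0.102).

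Among the inhibitors, Cst3 (ENSRNOG00000005195, chromosome 3, 143219686 to 143223615, minus strand) was the most abundant member and ranked 10 among all genes by mean FPKM. It was read at 3347, 3662 and 3509 FPKM in thalamus CFA, against 3033, 2718 and 2647 FPKM in thalamus saline. The groups did not overlap, but the log2 change of 0.33 ± 0.12 (SE) did not pass (limma adjusted p = 0.193). Cst7 (ENSRNOG00000006767, chromosome 3, 146365092 to 146373365) was the rarest member. It was read at 5.59, 4.23 and 6.07 FPKM in thalamus CFA, from 121, 82 and 115 reads, and had no read in any of the 3 thalamus saline libraries. Set against a floor of 3 reads per saline library, which is 0.152 FPKM on average, the CFA mean of 5.30 FPKM was at least 34.9-fold higher. Its fitted log2 change of 2.64 ± 0.17 (SE), limma adjusted p 0.000836, depends on the pseudocount, and the gene passed the filter on low values (a mean of 1 FPKM over the libraries fitted) only through the CFA libraries.

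Thalamus CFA library 3 had a choroid plexus and ependyma marker sum (71.3 FPKM) within the saline range (61.1 to 102 FPKM). Its Ttr of 5.50 FPKM lay within the saline range as well (2.31 to 18.0 FPKM). Its Folr1, also a choroid plexus marker, was 4.689 FPKM, just above saline (0.839 to 4.495 FPKM). In that library Ctsc was 9.17, Ctsz 6.14, Ctsh 2.47, Ctss 2.45, Ctsl 1.85, Ctsb 1.83, Ctsd 1.52 and Cst3 1.25 times the thalamus saline mean. These ratios lie within the range of the other CFA libraries or, for Ctsz, just under it. Cst7 had its highest level there. In a fit of that library alone against the 3 saline libraries, which assumes that a lone library varies like the others, 1 of 9 members (Ctsc, log2 change 2.80, limma adjusted p 0.0429) and 66 of 14507 genes (0.455%, with 0.448% higher) were called.

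**Figure D2:**
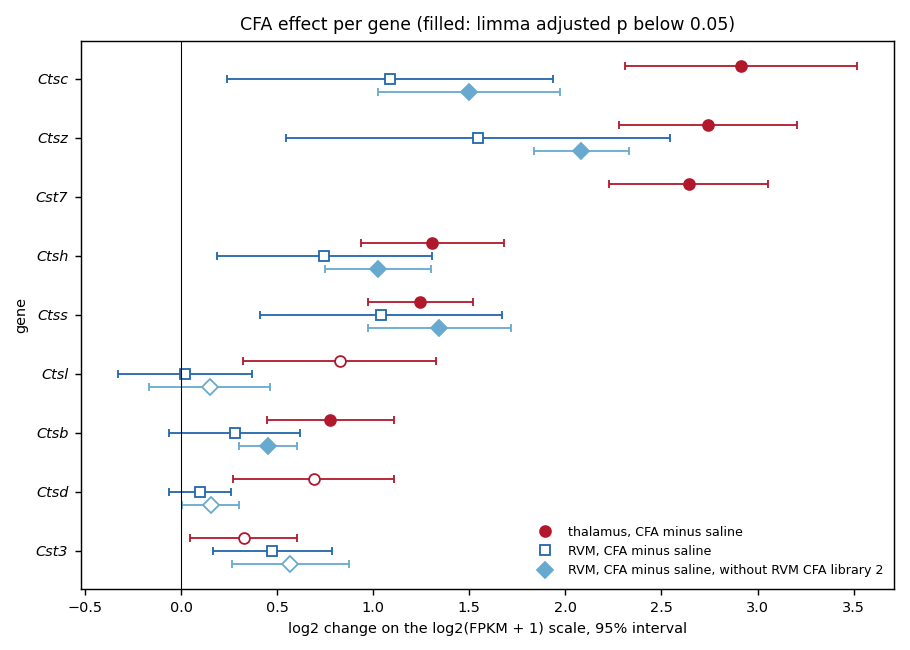
Log2 change between CFA and saline with its 95% interval for each gene in the thalamus (circles), in the RVM (squares) and in the RVM without CFA library 2 (diamonds), with filled symbols for a limma adjusted p below 0.05. In all, 6 thalamus circles are filled, no RVM square is filled, and 5 diamonds are filled. Cst7 has a thalamus value only, since its RVM mean was under the filter.

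In the RVM, Ctss, Ctsc, Ctsh, Ctsz and Cst3 were higher in every CFA library than in any saline library, and no member passed the test. The listed values of Cst7 did not overlap either, but its lowest CFA library gave 3 reads (0.1432 FPKM). That is under the 3-read limit of the saline libraries at 0 (0.1625 and 0.1886 FPKM), so its separation is not established. Ctsz stood at 110.5, 31.7 and 88.0 FPKM in RVM CFA, against 22.5, 22.1 and 23.0 FPKM in RVM saline. Ctss stood at 441, 216 and 372 FPKM in RVM CFA, against 193, 142 and 146 FPKM in RVM saline. Library 2 of the CFA group was the lowest for both. Ctsb, Ctsd and Ctsl overlapped between the groups. With limma 0 of 8 members tested and 0 of 14289 genes (0.0%) were called, while 5 of 8 members and 2030 genes had an unadjusted p below 0.05. Limma-voom on the recovered reads also called 0 genes, with 1860 at an unadjusted p below 0.05. Of all genes tested 7.27% had every CFA library above every saline library.

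The RVM changes of the members were wide in their error. Ctsz differed by 1.55 in log2 (95% interval 0.55 to 2.55, limma adjusted p 0.246), Ctsc by 1.09 (0.24 to 1.93, adjusted p 0.275), Ctss by 1.04 (0.41 to 1.67, adjusted p 0.242) and Ctsh by 0.75 (0.19 to 1.31, adjusted p 0.264). Cst3 differed by 0.48 (0.16 to 0.79, limma adjusted p 0.247), and its 6538, 4760 and 5093 FPKM in RVM CFA lay above the 4115, 3840 and 3735 FPKM of RVM saline. Ctsc stood at 16.4, 5.11 and 10.9 FPKM in RVM CFA, against 3.53, 4.93 and 3.93 FPKM in RVM saline, so that library 2 barely cleared the saline range. Ctsh stood at 89.8, 44.3 and 71.5 FPKM in RVM CFA, against 37.4, 37.2 and 42.2 FPKM in RVM saline.

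The other proteases overlapped between the RVM groups. Ctsb was read at 331, 220 and 301 FPKM in RVM CFA, against 229, 235 and 228 FPKM in RVM saline, a log2 change of 0.28 (95% interval -0.06 to 0.62, limma adjusted p 0.431). Ctsd was read at 283, 262 and 307 FPKM in RVM CFA, against 259, 271 and 265 FPKM in RVM saline, a change of 0.10 (-0.06 to 0.26, limma adjusted p 0.571). Ctsl was read at 157, 108 and 128 FPKM in RVM CFA, against 111, 135 and 139 FPKM in RVM saline, a change of 0.02 (-0.33 to 0.37, limma adjusted p 0.971). Its sign turned to -0.12 without RVM CFA library 1 and to -0.08 without RVM saline library 1. Cst7 gave 10, 3 and 19 reads in the RVM CFA libraries, against 0, 0 and 2 reads in RVM saline. Its mean was under the filter, so it was not tested there.

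RVM CFA library 2 decided whether members passed. Its Ctsz was 1.41 times the RVM saline mean, beside 4.90 and 3.91 times in the other CFA libraries. The ratios for Ctss were 1.35 in library 2 beside 2.74 and 2.32, and for Ctsc 1.24 beside 3.98 and 2.64. Without that library 5 of 8 members were called higher, in a fit that called 3.39% of 14264 genes (2.78% higher and 0.617% lower). Their log2 changes were 2.08 for Ctsz (limma adjusted p 0.00164), 1.498 for Ctsc (0.015), 1.34 for Ctss (0.00981), 1.03 for Ctsh (0.00881) and 0.45 for Ctsb (0.0183). Cst3 (0.57, adjusted p 0.0775), Ctsd (0.15, adjusted p 0.264) and Ctsl (0.15, adjusted p 0.607) did not pass in that fit. Labels give no ground for leaving the library out.

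Whether the members responded differently in the regions was tested as the interaction of region and treatment over all 12 libraries. With limma 0 of 8 members and 0 of 13738 genes (0.0%) were called, while 5 of 8 members and 1560 genes had an unadjusted p below 0.05. Limma-voom also called 0, with 1451 genes at an unadjusted p below 0.05. Of the 8, Ctsc had the widest difference, with a thalamus change that exceeded its RVM change by 1.83 in log2 (95% interval 0.76 to 2.89, limma adjusted p 0.337). Cst7, tested only with no filter, had a difference of 2.10 (limma adjusted p 0.0521). It had no read in thalamus saline, and 32 and 2 reads in all in RVM CFA and RVM saline. That difference therefore rests largely on the thalamus CFA libraries, and its size depends on the pseudocount. The difference was 1.20 for Ctsz (adjusted p 0.431), and 0.66 without RVM CFA library 2. It was 0.81 for Ctsl (adjusted p 0.380) and 0.59 for Ctsd (0.378). For Ctss it was 0.20 (95% interval -0.50 to 0.90), and without RVM CFA library 2 it was -0.10. For Cst3 it was -0.15 (95% interval -0.53 to 0.23), and its sign turned when libraries were rescaled to the same total (0.01) or quantile normalized (0.61).

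Baseline levels were compared between the saline libraries of the regions. Of 8 members tested 6 were lower in thalamus saline than in RVM saline, in a comparison that called 45.3% of 14396 genes, with 22.6% higher and 22.7% lower in the thalamus. All of the 8 but Ctss had every thalamus saline library below every RVM saline library, which held for 29.9% of all genes, while 28.9% lay above. Ctsl averaged 61.2 ± 6.06 FPKM in thalamus saline and 129 ± 14.99 FPKM in RVM saline (SD, n = 3 each), a log2 difference of -1.06 (limma adjusted p 0.000797). Ctsd averaged 153 ± 8.99 FPKM in thalamus saline and 265 ± 6.01 FPKM in RVM saline, a difference of -0.79 (limma adjusted p 0.000372). Cst3 averaged 2799 ± 205 FPKM in thalamus saline and 3896 ± 197 FPKM in RVM saline, a difference of -0.48 (limma adjusted p 0.00673). These 3 were also called lower with each saline library left out in turn, but Cst3 lost its call with quantile normalization (-0.18, limma adjusted p 0.442) and with no filter on low values (-0.48, limma adjusted p 0.146).

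Ctsh (-0.47, limma adjusted p 0.0224), Ctsz (-0.58, 0.024) and Ctsc (-0.49, 0.0366) were the other members called lower in thalamus saline. Their calls were lost when every library was rescaled to the same FPKM total, which moved the median of all genes from -0.02 to 0.14 and the split of calls to 4559 higher and 2013 lower, beside 3250 and 3273 in the fit of the values as deposited. The share of all genes called lower was then 14.0%. The call for all 3 was also lost with limma-voom, which called 18.0% of genes lower, and in a single model of all 12 libraries, which called 22.3% lower. Ctss (-0.21, 95% interval -0.56 to 0.13) and Ctsb (-0.13, -0.26 to 0.01) did not pass. The sign of Ctsb turned with rescaling (0.06) and with quantile normalization (0.08).

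The order of the groups differed between members. For Ctsb, Ctsc, Ctsh, Ctsz and Cst7 the group means ran from thalamus CFA, the highest, through RVM CFA and RVM saline to thalamus saline. Neighbouring groups were free of overlap throughout for Ctsc. Thalamus CFA and RVM CFA overlapped for Ctsb, Ctsh and Ctsz, RVM CFA and RVM saline also overlapped for Ctsb, and RVM saline and thalamus saline overlapped for Cst7. For Ctsd, Ctsl and Cst3 the order was RVM CFA, RVM saline, thalamus CFA and thalamus saline. The groups of Cst3 did not overlap at any step, so that even the highest thalamus CFA library (3662 FPKM) lay below the lowest RVM saline library (3735 FPKM). For Ctsd and Ctsl thalamus CFA overlapped RVM saline and RVM saline overlapped RVM CFA. Ctss ran from RVM CFA through thalamus CFA and RVM saline to thalamus saline, with overlap within each treatment.

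**Figure D3:**
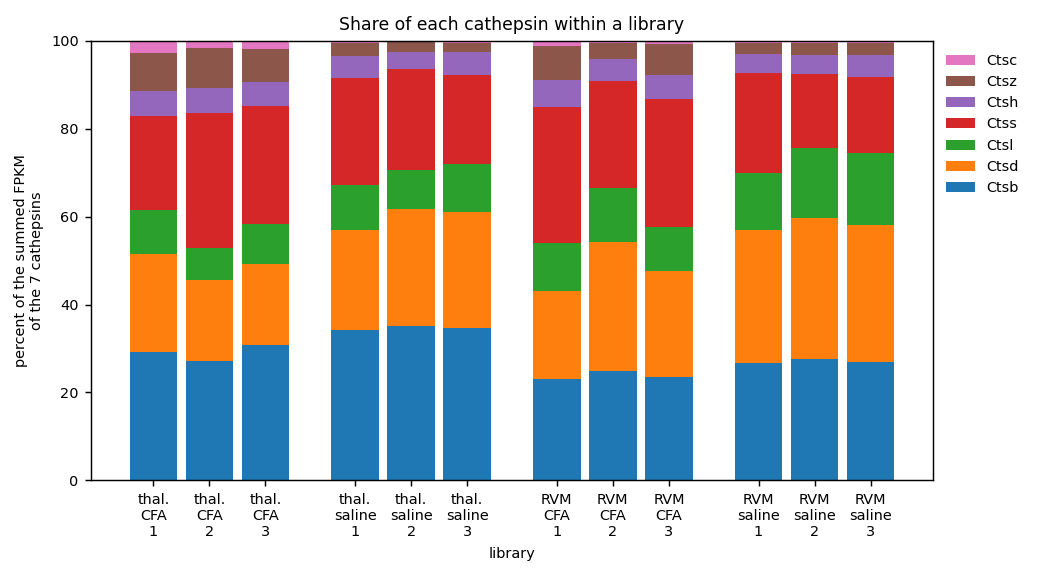
Share of each of the 7 cathepsins in their summed FPKM, in percent, stacked for every library with groups from thalamus CFA on the left to RVM saline on the right. The Ctsz band is 7.38 to 9.05% in thalamus CFA, against 2.09 to 3.09% in thalamus saline, and the Ctsb band is narrower in every CFA library than in any saline library of its region.

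The makeup of the cathepsin pool was described by shares, with each library scaled to its own sum. The 7 cathepsins summed to 1422, 1100 and 1253 FPKM in thalamus CFA, against 627, 603 and 595 FPKM in thalamus saline, and to 1428, 888 and 1279 FPKM in RVM CFA, against 856, 847 and 847 FPKM in RVM saline. Ctsz made up 8.39% of that sum in thalamus CFA and 2.47% in thalamus saline, and 6.07% in RVM CFA and 2.65% in RVM saline. Ctsc made up 2.14% in thalamus CFA and 0.434% in thalamus saline. The shares of the abundant Ctsb and Ctsd were lower under CFA: Ctsb made up 29.0% in thalamus CFA and 34.7% in thalamus saline, and Ctsd 19.8% in thalamus CFA and 25.1% in thalamus saline. None of these pairs of groups overlapped, and each gave an exact two-sided permutation p of 0.1, the smallest that 3 against 3 libraries can give.

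Ctss, the share of which was 26.4% in thalamus CFA and 22.6% in thalamus saline, overlapped there (exact permutation p = 0.3) and did not overlap in the RVM, with 28.1% in RVM CFA and 18.9% in RVM saline (p = 0.1). Cst3 stood at 2.83 times the cathepsin sum in thalamus CFA and 4.60 times in thalamus saline, with no overlap (exact permutation p = 0.1). In the RVM the ratio was 4.64 in CFA and 4.58 in saline (exact permutation p = 0.8). A ratio of RNA levels says nothing of how much protease is inhibited.

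The microglial marker sum was higher in every CFA library than in any saline library of its region. All members shared that in the thalamus, but Ctsb, Ctsd and Ctsl did not in the RVM. The 14 matched markers summed to 1458, 1114 and 1070 FPKM in thalamus CFA, against 251, 222 and 213 FPKM in thalamus saline, and to 1387, 408 and 1168 FPKM in RVM CFA, against 282, 232 and 227 FPKM in RVM saline. The marker Siglech was at 0 in both saline groups, and no marker was at 0 throughout either CFA group. In the thalamus 10 of 13 markers tested were called higher, with a median log2 change of 1.65, and in the RVM 0 of 13, with a median of 0.97. Wide changes were those of C1qc, a subunit of complement C1q, at 243 FPKM in thalamus CFA and 26.8 FPKM in thalamus saline on average, and Tyrobp, a signalling adaptor of myeloid receptors, at 115 FPKM in thalamus CFA and 14.6 FPKM in thalamus saline. P2ry12 changed less, with 23.63, 20.93 and 24.44 FPKM in thalamus CFA, against 12.43, 8.996 and 11.32 FPKM in thalamus saline. Tmem119 overlapped, with 11.71, 20.77 and 14.39 FPKM in thalamus CFA, against 11.97, 14.52 and 13.91 FPKM in thalamus saline. Of the 13 tested in the thalamus, 11 had every CFA library above every saline library.

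**Figure D4:**
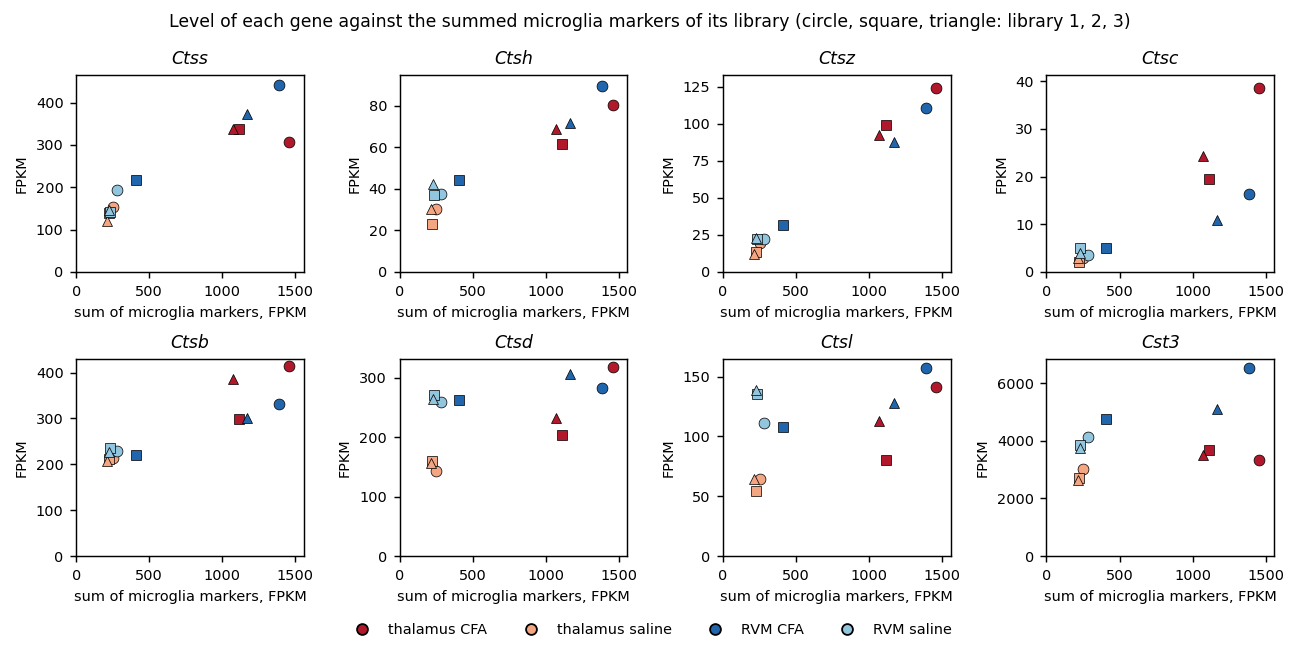
Level in FPKM of 8 members against the summed FPKM of the 14 microglial markers in the same library, coloured by group. RVM CFA library 2 (blue square) lies between the saline libraries and the other RVM CFA libraries on the marker axis, and Ctss, Ctsh and Ctsz lie between them as well, while Ctsd, Ctsl and Cst3 are higher in all RVM saline libraries than in any thalamus saline library.

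Set against those markers, the result depended on how the markers were weighted. Their sum is carried by abundant genes with large changes, such as C1qc. Per 100 FPKM of markers Ctss gave 27.6 FPKM in thalamus CFA and 60.1 FPKM in thalamus saline, and 38.9 FPKM in RVM CFA and 64.7 FPKM in RVM saline. Ctsb, Ctsd, Ctsh, Ctsl and Cst3 were likewise lower per marker FPKM in every CFA library than in any saline library of their region. The marker sum was itself higher under CFA, so any gene that rose less comes out lower on this measure. How many of all genes did so was not counted, so lower values here are no result particular to the members. Ctsz was higher per 100 FPKM of markers in thalamus CFA (8.70 FPKM, against 6.53 FPKM in saline) and lower in RVM CFA (7.76 FPKM, against 9.21 FPKM in saline). Ctsc gave 2.22 FPKM per 100 in thalamus CFA and 1.16 FPKM in thalamus saline, and overlapped in the RVM. The exact two-sided permutation p was 0.1 for each of these non-overlapping pairs. With every marker given the same weight, as the mean log2(FPKM + 1) of the 14 (chosen after the data were examined), Ctsb, Ctsd, Ctsh, Ctsl and Cst3 were again lower relative to markers in all CFA libraries of both regions. The same limit applies to this measure. Ctss was then lower in the thalamus with a difference of -0.43 (exact permutation p = 0.1) and overlapped in the RVM (p = 0.4), and Ctsz turned to 0.39 higher in RVM CFA, with overlap (p = 0.2). Against Cx3cr1 alone, also chosen afterwards, Ctss stood at a ratio of 8.58 ± 1.29 in thalamus CFA and 8.51 ± 0.433 in thalamus saline, with overlap (exact permutation p = 1.0, SD, n = 3 each). Cx3cr1 is 1 of the 2 genes nearest to Ctss across these same 12 libraries (0.160 on the likeness measure given below). A level ratio between Ctss and Cx3cr1 follows from that likeness and is no support of its own. The markers themselves differed with CFA, and their part in the members' levels was not tested.

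Some markers of other cells moved as well. The 14 markers of infiltrating myeloid and lymphoid cells in the table reached 602 to 691 FPKM in thalamus CFA, against 22.6 to 38.2 FPKM in thalamus saline, and to 62.9 to 235 FPKM in RVM CFA and 34.2 to 47.6 FPKM in RVM saline, with the B cell gene Cd79al at 0 in all libraries. In the thalamus 5 of 5 tested passed as higher, among them the lysozyme gene Lyz2 (579 FPKM in CFA, 26.6 FPKM in saline). Only 1 of the 14 averaged 1 FPKM or more over the saline libraries of both regions. The others tested entered largely through their CFA libraries, so their passes are no support of their own. Lyz2 alone gave 533.8 to 620.5 FPKM in thalamus CFA libraries, most of the marker sum there. The 7 border macrophage markers reached 18.3 to 39.1 FPKM in thalamus CFA, against 8.61 to 10.2 FPKM in thalamus saline, with 2 of 5 called higher (Pf4 and Clec10a). Of the 7, only 2 averaged 1 FPKM or more over the saline libraries of both regions. The 10 astrocyte markers reached 1881 to 2118 FPKM in thalamus CFA, against 1594 to 1729 FPKM in thalamus saline, with 1 of 10 called higher, the filament gene Gfap. Gfap alone stood at 936, 455 and 364 FPKM in thalamus CFA, against 155, 79.3 and 137 FPKM in thalamus saline. Only 3 of the 10 had a positive log2 change in the thalamus, with a median of -0.23 beside -0.08 over all genes. In the RVM 0 members of any of these lists passed with limma or limma-voom.

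No marker of choroid plexus and ependyma (0 of 10 tested, median log2 change 2.87), meninges and mural cells (0 of 10), neurons (0 of 10), oligodendrocytes (0 of 8), region (0 of 6) or retina (0 of 1) passed the limma test in the thalamus. The neuron markers reached 1275 to 1989 FPKM in thalamus CFA, against 1897 to 2791 FPKM in thalamus saline. The markers of thalamus and hindbrain reached 128 to 445 FPKM in thalamus CFA, against 331 to 755 FPKM in thalamus saline, with the hindbrain genes Hoxa5 and Hoxa3 at 0 in both. Between the saline groups, the thalamic genes Prkcd (log2 difference 5.43) and Tcf7l2 (4.98) were called higher in thalamus and the hindbrain genes Hoxb3 (-3.79) and Hoxb5 (-3.98) lower with limma, as the tissue labels say. How far any of these marker shifts bears on the cathepsins and cystatins was not tested.

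The remaining cathepsins did not share the calls. Of 14 further cathepsin names 12 were in the table, and 7 of those were at 0 in every library. In the thalamus 0 of 3 tested passed with limma and 2 of 3 had an unadjusted p below 0.05, as did 3152 of all 14722 genes. Ctse and Ctsw were under the filter there and were not tested. Ctse stood at 0.903 to 1.28 FPKM in thalamus CFA, against 0.544 to 0.647 FPKM in thalamus saline. Ctsw stood at 0.486 to 1.45 FPKM in thalamus CFA, against 0 to 0.0416 FPKM in thalamus saline. Ctsa, the serine carboxypeptidase known as protective protein, stood at 96.7 FPKM in thalamus CFA and 61.5 FPKM in thalamus saline (log2 change 0.63, adjusted p 0.0851). Ctsk, best known from osteoclasts, stood at 7.37 FPKM in thalamus CFA and 2.49 FPKM in thalamus saline (1.39, adjusted p 0.197). In the RVM 0 of 4 passed with limma and 1 of 4 had an unadjusted p below 0.05, as did 2030 of all 14289 genes. There Ctse (0.46, limma adjusted p 0.386) and Ctsf (-0.18, limma adjusted p 0.336) had the smallest p of the 4. Among the other cystatins, stefins and related inhibitors, 15 of 18 names matched, 8 were at 0 in every library and 0 of 2 tested passed with limma in either region. Cstb, the cytosolic inhibitor stefin B, stood at 84.0 FPKM in thalamus CFA and 65.6 FPKM in thalamus saline (0.35, adjusted p 0.187), and Cst6 at 16.9 FPKM in thalamus CFA and 10.4 FPKM in thalamus saline (0.40, adjusted p 0.698).

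Other lysosomal genes moved in part. Of 31 lysosomal hydrolases and activators tested in the thalamus 6 were called higher and 0 lower, with a median log2 change of 0.35 beside -0.08 over all genes. Grn, which encodes the progranulin precursor, stood at 67.04 FPKM in thalamus CFA and 23.0 FPKM in thalamus saline (1.49, limma adjusted p 0.00558). Fuca1, a fucosidase gene, changed by 1.07, Lgmn, which encodes the asparaginyl protease legumain that processes cathepsin precursors, by 1.01, and Man2b1, a mannosidase gene, by 1.01. Of 20 lysosomal membrane and proton pump genes 4 were called higher, with a median of -0.10: Cd68 (3.80), Slc11a1 (1.91), Laptm5 (1.75) and Npc2 (1.40). Cd68, Slc11a1 and Laptm5 are known mainly from phagocytes and other blood-derived cells, and Npc2 carries cholesterol. Of 12 sorting receptors and regulators 3 passed as higher, the myeloid transcription factors Irf8 (2.94), Spi1 (2.09) and Tfec (1.79). With limma 0 of 30, 0 of 20 and 0 of 11 genes of these lists passed in the RVM.

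Genes that work with the members were also followed. Of 9 MHC class II presentation genes tested in the thalamus 7 were called higher, with a median log2 change of 4.20. Only 3 of the 11 listed averaged 1 FPKM or more over the saline libraries of both regions. The others tested entered the thalamus and RVM fits largely through CFA libraries, so the counts and medians of this list are no support of their own. Cd74, the invariant chain that cathepsin S trims, stood at 674 FPKM in thalamus CFA and 12.5 FPKM in thalamus saline (5.66, limma adjusted p 0.000182), and RT1-Ba, a class II chain, at 123 FPKM in thalamus CFA and 0.488 FPKM in thalamus saline (6.46). RT1-Da (5.19) and RT1-Db1 (4.98) also rose. In the RVM 0 of 7 passed with limma, with a median of 3.84, and the list summed to 1951, 118 and 777 FPKM in the RVM CFA libraries, against 26.1 to 38.9 FPKM in RVM saline. Of 9 substrates and partners tested in the thalamus 4 were called higher: Unc93b1 (2.24), which carries nucleic acid receptors to the endosome, and the endosomal receptors Tlr8 (1.58), Tlr7 (1.36) and Tlr3 (1.02). Cx3cl1, the fractalkine gene, is added here with its values known. It stood at 67.6, 142 and 105 FPKM in thalamus CFA, against 148, 233 and 190 FPKM in thalamus saline, without overlap, and did not pass (log2 change -0.89, limma adjusted p 0.177). Of all genes tested 16.8% had every CFA library below every saline library. In the RVM 0 of 7 passed with limma.

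Likeness across the libraries was measured as the root mean square difference of log2(FPKM + 1), centred on each gene's mean over the 12 libraries, and is a description with no test. Within the members Ctsd and Ctsl were the closest pair (0.182), followed by Ctsh and Ctss (0.234), and Cst3 and Cst7 were the farthest apart (1.152). Over all named genes that averaged 1 FPKM or more, the nearest to Ctss were Dapp1 (0.158) and Cx3cr1 (0.160), which encodes the microglial receptor of fractalkine. The nearest to Ctsz were Tyrobp (0.170) and Cyba (0.174), and to Ctsh Arhgap15 (0.118) and Golm1 (0.136). Ctsc ran closest to Bcl2a1 (0.224), and Ctsb to Tln1 (0.105) and Ninj1 (0.106). Ctsd ran closest to Cd2ap (0.105) and Uap1l1 (0.114), and Ctsl to Gpx8 (0.124) and Syngr2 (0.137). Cst3 ran closest to the ribosomal protein genes Rpl26 (0.1) and Rps24 (0.133), and Cst7 to Serpina3n (0.258) and Lrrc25 (0.266). All points share the groups, so genes that differ between groups in the same way come out alike.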

How the data were processed

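The deposited table holds FPKM per gene and library beside gene length, coordinates and biotype, per the file headers. TRIzol extraction and an Illumina TruSeq kit, not stated to be stranded, come from the labels' protocols. Not given in the sources used here are the aligner, the counting tool, the genome build and the scaling behind the FPKM. Coordinates are those of the table. In each library 100% of the products of FPKM and gene length fell on whole steps (tolerance 0.01), and a step was taken as 1 read. The library totals behind the deposited FPKM were 0.934 to 1.168 times the recovered totals, and 1.109 to 1.168 times in thalamus CFA. No libraries of a group were identical or within counting noise of each other, so none was taken as a repeat deposit, which does not show that they are separate animals.

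Log2(FPKM + 1) was fitted with limma 3.58.1 (R 4.3.3, lmFit and eBayes with a trend) for genes averaging 1 FPKM or more in the libraries of the fit, and p-values were adjusted over all genes tested. Each region was fitted alone. The interaction was fitted over 12 libraries for genes averaging 1 FPKM or more in both regions. Saline libraries were also compared between regions. The change in log2(FPKM + 1) understates changes of low genes, while folds between group means carry no pseudocount. Exact two-sided permutation tests were used for sums and shares. The limma fits were tested on simulated data. The members and all gene and marker lists were chosen with earlier results of these data known. Named genes were all members, in each list up to 4 called members with the largest change, or the 2 with the smallest p, and the 2 genes most like each member, of which 1 is not reported here. Alternatives were a pseudocount of 0.1, no filter or a filter at 5 FPKM, 3 other scalings, other variance models, limma-voom on the recovered reads, a replicate block, a single model of 12 libraries, and leaving out libraries.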

Additional observations from a re-analysis of the deposited data

How the results depend on the processing

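In the thalamus 6 members and 605 genes were called. The member count was 5 to 7 with a library left out and 1 without CFA libraries 1 and 2 together. The gene count was 298 with a filter at 5 FPKM, 1010 with library quality weights, 1932 in a single model of 12 libraries, where Ctsd and Ctsl also passed, 309 to 547 with a library left out and 66 without CFA libraries 1 and 2. Ctss, Ctsc, Ctsh and Ctsz were called with each library left out. Cst7 was too, but it entered each fit only through its CFA libraries, and it could not be tested with the filter at 5 FPKM. In the RVM 0 to 5 members and 0 to 484 genes were called with a library left out, and 1 gene with no filter. Ctsl spanned -0.12 to 0.149 there. For the interaction 0 to 15 genes were called with a library left out, Cst3 turned to 0.014 after rescaling and 0.607 with quantile normalization, and Ctss spanned -0.10 to 0.414. Between saline groups 3 members were called after rescaling, 3 in a single model of 12 libraries and 3 with limma-voom, 3 to 6 with a library left out, and the gene count was then 4855 to 7154. Ctsb turned to 0.056 after rescaling and 0.079 with quantile normalization. The cause of these shifts was not tested, beyond the smaller number of genes or libraries where these were reduced. Rescaling moved the median change of all genes in the thalamus from -0.08 to 0.07, and no member changed its direction there.

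The labels number the libraries 1 to 3 in each group. Same-numbered CFA and saline libraries deviated together with correlations of 0.364, 0.063 and 0.267 in the thalamus and -0.028, -0.005 and -0.010 in the RVM. Unlike-numbered libraries in the thalamus gave -0.448 to 0.312, the highest for CFA library 3 and saline library 2. These values do not settle whether the thalamus libraries were paired. They were not taken as pairs, because the labels do not say that a number marks a shared animal or day. With the number as a replicate block 1338 genes were called in the thalamus, Ctsl among them, and 0 in the RVM and for the interaction. Depth limits Cst7 alone among the members, the only one with fewer than 64 reads in any library.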
